A study of Homo sapiens with 26 samples.

Results

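The regions described here are the enhancers that carried both marks of an active enhancer after 1 h of p53 activation and did so at neither of the other times sampled in wild-type (WT) HCT116 cells, a human colorectal carcinoma line with an intact p53 response. An enhancer was the intersection of an H3K27ac region with an H3K4me1 region, a region being the merged peaks of all deposited lists of a mark, and it was active at a time when each mark had a peak in both lists of that time. By this rule, 1574 enhancers were active at 1 h only, out of 26788 active at 1 h and 34845 active at any WT time. No 2 of the 1574 shared an H3K27ac region, and 9 shared theirs with an enhancer active at all 3 times. The enhancers were thus chosen by their peak calls in the WT lists, and all WT values below are descriptions with no test.

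ChIP-seq peak lists were available for 8 groups with 2 replicate lists each. WT cells received the vehicle DMSO (0 h) or Nutlin-3a, a blocker of the p53-HDM2 interaction, for 1 h or 10 h, and were profiled for H3K27ac and H3K4me1. The RAD21 line, labelled HCT116_RAD21, was profiled for H3K27ac with DMSO (0 h) or after 1 h of Nutlin-3a. According to the methods of the study, all RAD21 alleles of this line carry an auxin-inducible degron and the protein was degraded with 5-Ph-IAA beforehand, in the 0 h samples as in the 1 h ones. The protein itself cannot be checked in peak lists. The H3K27ac lists held 31640 to 49127 peaks and the H3K4me1 lists 84492 to 92943, and read depth is unknown from them. The study calls the replicates biological, and the sources used here do not say whether they are separate cultures, so p-values measure the spread between these lists alone. In 3 lists, both WT 0 h H3K27ac lists and the first WT 1 h one, the peak names lack the word input that the other 13 carry, and these 3 covered 30.7 to 31.9 Mb against 49.1 to 66.6 Mb in the other 7 H3K27ac lists. Name form and time cannot be told apart for 0 h or 10 h. The 2 WT 1 h H3K27ac lists differ in form, and the rule itself requires a peak in both. Absence of H3K27ac at 0 h was judged only in lists without the word, which covered less of the genome. Promoters of all 8 colon epithelial marker genes checked, among them EPCAM, CDH1 and CDX2, were called in all 10 H3K27ac lists, and those of 5 marker genes of other cell types were called in none. PECAM1, planned as a further marker of other cell types, was not among the 5.

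H3K4me1 marks enhancers that are active or poised, whereas H3K27ac, laid down by the acetyltransferases p300 and CBP, is found on enhancers and promoters in use. A poised enhancer that gains H3K27ac is therefore read as switched on, and one that loses it as switched off. p53 is a transcription factor that binds a pair of ten-base palindromes and that is stabilized when its ubiquitin ligase HDM2 (MDM2) is blocked. RAD21 is the cleavable subunit of cohesin, the ring complex that extrudes and holds DNA loops, including those between enhancers and promoters.

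The sequences below are 200 bases of GRCh37, plus strand, around the H3K27ac summit at WT 1 h, in lower case with matches to the motifs searched in capitals. The first 4 are from the 5 enhancers with the highest H3K27ac at 1 h among those called for this mark in none of the 4 lists of 0 h and 10 h, and they are shown because 3 of the 5 are repeated sequence, among them those of LTBP1 and EHMT1:
LTBP1, chr2:33141443-33141642: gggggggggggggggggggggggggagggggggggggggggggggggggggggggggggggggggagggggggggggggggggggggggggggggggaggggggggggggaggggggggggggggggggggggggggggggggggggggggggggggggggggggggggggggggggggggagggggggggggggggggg
EHMT1, chr9:140610725-140610924: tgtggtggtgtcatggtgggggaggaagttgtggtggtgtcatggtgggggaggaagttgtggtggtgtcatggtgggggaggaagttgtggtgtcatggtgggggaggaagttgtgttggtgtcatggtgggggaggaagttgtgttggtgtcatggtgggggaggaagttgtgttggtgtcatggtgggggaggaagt
KIAA0040, chr1:175238098-175238297: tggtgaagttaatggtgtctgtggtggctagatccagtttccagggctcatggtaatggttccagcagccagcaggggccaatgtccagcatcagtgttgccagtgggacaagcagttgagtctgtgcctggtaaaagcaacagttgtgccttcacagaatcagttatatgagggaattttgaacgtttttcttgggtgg
CEP112, chr17:63738678-63738877: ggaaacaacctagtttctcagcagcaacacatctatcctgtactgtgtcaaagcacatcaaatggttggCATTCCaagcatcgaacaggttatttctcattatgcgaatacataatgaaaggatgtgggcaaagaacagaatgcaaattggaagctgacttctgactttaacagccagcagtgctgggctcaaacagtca
The LTBP1 window is 97.5% G and holds 7 different 6-base words of 195 possible and the EHMT1 window holds 33. The windows near KIAA0040 and in CEP112 hold 181 and 188. Of the 20 highest enhancers with no H3K27ac call at 0 h and 10 h, 3 were repeated sequence, and so were 38 (5.55%) of all 685.

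The next 4 are from the 5 enhancers with the highest H3K27ac at 1 h in the RAD21 line among those that gained a call there, and they are shown as the contrasting set, with 187 to 189 different 6-base words each:
RN7SKP11, chr12:96820949-96821148: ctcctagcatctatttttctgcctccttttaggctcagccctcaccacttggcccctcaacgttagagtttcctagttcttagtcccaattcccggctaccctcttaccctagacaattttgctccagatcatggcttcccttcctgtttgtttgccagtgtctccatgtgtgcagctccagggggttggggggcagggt
TBC1D23, chr3:99988501-99988700: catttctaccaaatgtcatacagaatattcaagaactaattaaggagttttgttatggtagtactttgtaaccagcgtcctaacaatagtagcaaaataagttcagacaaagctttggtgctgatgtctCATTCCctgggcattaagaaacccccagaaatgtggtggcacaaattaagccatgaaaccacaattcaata
RNF185, chr22:31569451-31569650: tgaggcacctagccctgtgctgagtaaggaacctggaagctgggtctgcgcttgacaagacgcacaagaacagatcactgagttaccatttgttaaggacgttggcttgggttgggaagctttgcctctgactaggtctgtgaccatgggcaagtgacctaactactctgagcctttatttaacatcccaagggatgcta
ARID3B, chr15:74823501-74823700: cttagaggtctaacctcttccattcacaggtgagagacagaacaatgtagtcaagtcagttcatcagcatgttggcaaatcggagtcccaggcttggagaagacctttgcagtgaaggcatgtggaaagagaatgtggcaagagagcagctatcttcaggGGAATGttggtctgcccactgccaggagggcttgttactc
Capitals mark a TEAD motif in the CEP112, TBC1D23 and ARID3B windows, and the other windows held no match.

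H3K27ac was the missing mark at nearly all of these enhancers, with H3K4me1 in place. At 0 h, 1509 of 1574 (95.9%) lacked H3K27ac alone, 22 (1.40%) lacked H3K4me1 alone and 43 lacked both. At 10 h the numbers were 1493 (94.9%), 33 and 48. H3K4me1 was called in all 6 WT lists at 1489 enhancers, the same number that lacked H3K27ac alone at both times (94.6%). These had H3K4me1 throughout and H3K27ac in both lists at 1 h only.

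Lacking H3K27ac meant either no peak at all or a peak in 1 of the 2 lists. At 0 h, 882 enhancers (56.0%) had no H3K27ac peak in either list and 670 (42.6%) had one in a single list. At 10 h, 1100 (69.9%) had none and 441 (28.0%) a single one. Only 685 of the 1574 (43.5%) had no H3K27ac peak in any of the 4 lists, and these are called the fully unmarked enhancers below. The name refers to H3K27ac alone, since 648 of them had H3K4me1 in all 6 lists. List by list, 18.4% and 26.9% of the 1574 were called at WT 0 h and 15.4% and 16.8% at WT 10 h, against 92.0 to 93.6% of all enhancers active at 1 h. The smaller set of 21 enhancers with H3K27ac in both lists at 0 h and 10 h, and H3K4me1 incomplete at both, included 9 in promoters.

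**Figure D1:**
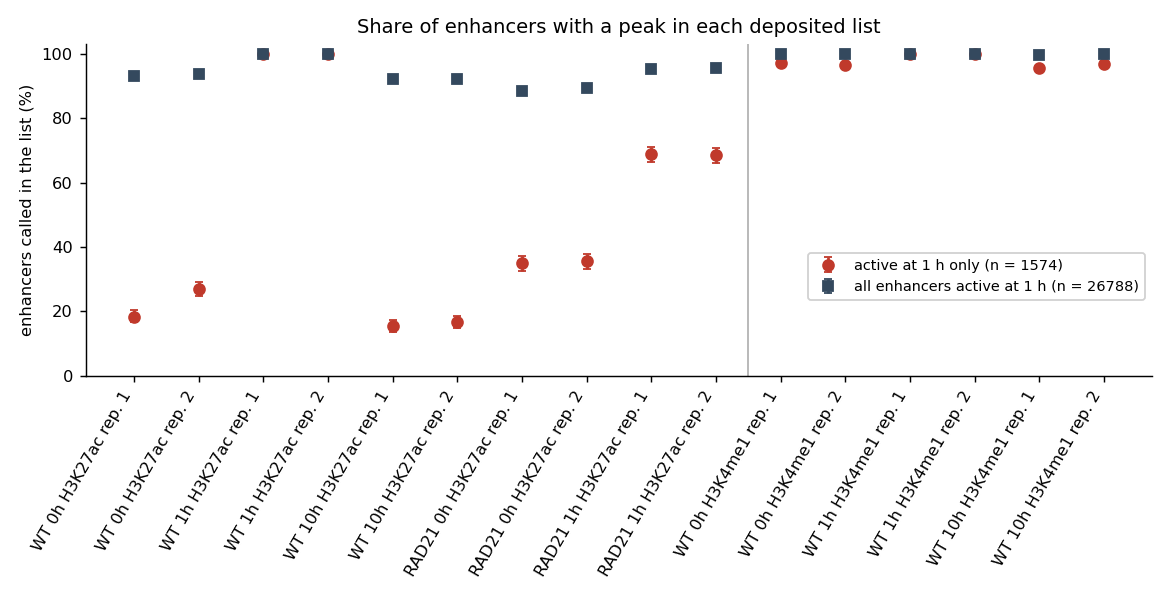
Percent of enhancers (vertical axis) with a peak in each of the 16 deposited lists (horizontal axis), for the 1574 enhancers active at 1 h only (circles) and all 26788 active at 1 h (squares), with 95% Wilson intervals that cover counting error only. The circles stand at 15.4 to 26.9% in the WT 0 h and 10 h H3K27ac lists, at 34.9 and 35.5% in the RAD21 line at 0 h, at 68.8 and 68.4% in the RAD21 line at 1 h, and at 95.4% or above in the H3K4me1 lists, while 100% in the WT 1 h lists follows from the rule.

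H3K27ac at these enhancers was weak beside enhancers active at all 3 times, and H3K4me1 was not. Strength was read as the percentile of a region among all regions called in the same list, ranked by peak −log10 p. The mean H3K27ac percentile over both WT 1 h lists had a median of 25.6 (quartiles 18.3 and 34.0), and 1537 of 1574 (97.6%) lay below 50. Enhancers active at all 3 times had a median of 72.0. For H3K4me1 the medians were 82.5 and 81.6. Low H3K27ac was shared by the other sets called at a single time, with median percentiles of 21.3 and 20.2 in the 0 h lists for enhancers active at 0 h only and of 39.4 and 36.0 in the 10 h lists for those active at 10 h only, against 20.9 and 32.2 here in the 1 h lists.

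The peaks themselves were weaker in both lists, by differing margins. Median fold enrichment was 4.09 in the first WT 1 h H3K27ac list and 4.03 in the second, against 7.19 and 17.9 at enhancers active at all 3 times. In their own lists it was 3.43 and 3.71 for the 0 h only set and 4.06 and 4.09 for the 10 h only set. These folds are not directly comparable between times. Enhancers active at all 3 times had medians of 6.72 and 7.08 in the WT 0 h lists and 19.6 and 19.9 in the WT 10 h lists. A −log10 q of 5 or more in both lists was reached by 586 (37.2%) of the enhancers active at 1 h only and by 95.5% of those active throughout. The intersections were narrower as well, with a median of 963 bp against 1945 bp, a width between the 706 bp of the 0 h only set and the 1017 bp of the 10 h only set. A peak of every one of the 4 WT 1 h lists lay directly over the intersection at 1548 of the 1574.

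Where a list of another group had an H3K27ac peak at one of these enhancers, it too was weak in WT cells. Median percentiles were 16.7 and 15.9 in the WT 0 h lists, over 290 and 424 called enhancers, and 29.6 and 26.1 in the WT 10 h lists, over 243 and 264. In the RAD21 line they were 40.2 and 43.0 at 0 h, over 549 and 559, and 35.8 and 33.9 at 1 h, over 1083 and 1077. The 0 h calls of the RAD21 line were thus fewer and of higher rank within their lists than its 1 h calls, but their median fold enrichment was lower, 4.82 and 4.29 at 0 h against 5.23 and 4.98 at 1 h, as was their −log10 q, 6.51 and 6.74 against 8.09 and 9.33.

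**Figure D2:**
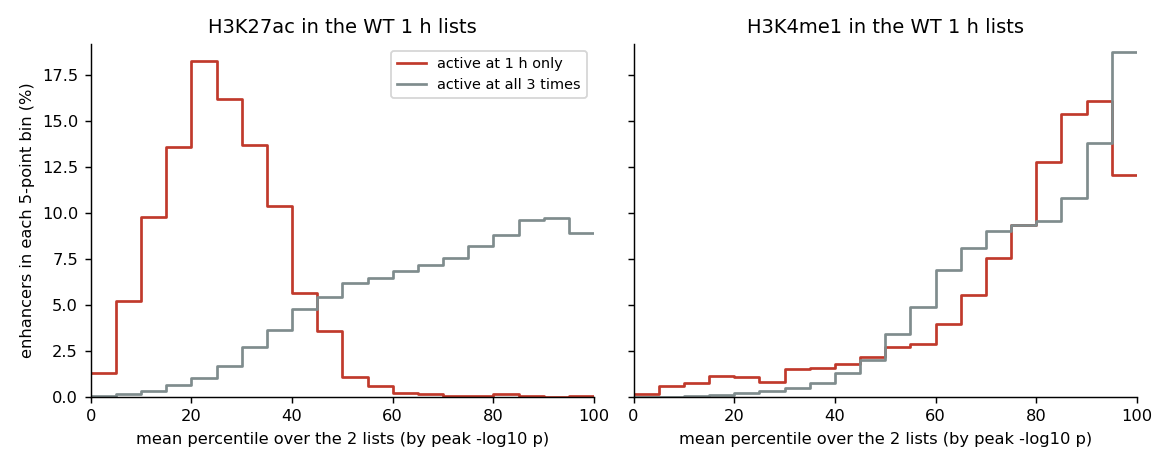
Distribution of the mean percentile over both WT 1 h lists (horizontal axis, by peak −log10 p) for H3K27ac (left) and H3K4me1 (right), as the percent of enhancers in each 5-point bin (vertical axis). For H3K27ac the enhancers active at 1 h only (red, median 25.6) sit to the left of those active at all 3 times (grey, median 72.0), and for H3K4me1 both curves rise to the right (medians 82.5 and 81.6).

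The highest H3K27ac percentiles belonged to a different kind of region. Among the 10 enhancers with the highest mean at WT 1 h (61.5 to 96.9), 8 had H3K27ac in all 6 WT lists and were members through gaps in H3K4me1. The strongest, an exon of U2AF2, a splicing factor subunit, at chr19:56172180-56173127, had H3K27ac percentiles of 98.4 and 98.2 at 0 h, 94.9 and 98.9 at 1 h, and 99.1 and 99.2 at 10 h. Its H3K4me1 peaks, found at 1 h only, stood at percentiles 8.84 and 7.76. The promoter shared by MRPL36 and NDUFS6, a mitochondrial ribosome protein and a subunit of respiratory complex I, the promoter of the ubiquitin ligase HUWE1 and the promoter of the kinetochore protein ZWINT also had H3K27ac in all 6 lists. Others were the promoters of LRIF1 and of ENSG00000226310 beside SPIN2B, and exons of the kinase PRKD2 and of the myosin heavy chain MYH9. At all 8, H3K4me1 was called in no more than 1 list at 0 h and at 10 h, and its percentiles at 1 h were 3.2 to 33.4. At LRIF1 the single 0 h list gave 41.1, above both 1 h values of 4.99 and 25.7, so that the number of lists with a call rose at 1 h there and the level did not.

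The fully unmarked enhancer with the highest H3K27ac lay in an intron of LTBP1, a binding protein of latent TGF-β, at chr2:33141295-33141711. Its H3K27ac percentiles were 99.1 and 67.9 in the WT 1 h lists, with fold enrichments of 27.2 and 3.68, and it had no peak at 0 h or 10 h. It was also called in all 4 lists of the RAD21 line, at percentiles of 75.6 and 75.3 at 0 h and 68.7 and 65.0 at 1 h. The 2 WT lists thus differed widely, and this is the nearly pure run of G printed above.

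The next in order differed in sequence and in their calls in the RAD21 line. The intron of EHMT1, a histone H3K9 methyltransferase, at chr9:140610549-140610983, had 54.2 and 57.8 at WT 1 h and was called in all 4 RAD21 line lists. A region 59249 bp from the start of SMPDL3A, a phosphodiesterase, had 64.8 and 44.5 and was also called in all 4. Neither had an H3K4me1 peak at 0 h or 10 h.

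The other two had H3K4me1 at all times. The region 75867 bp from the start of KIAA0040, at chr1:175237946-175239151, had H3K27ac percentiles of 53.4 and 63.1 at WT 1 h and a peak in 1 of 4 RAD21 line lists, a 1 h list. The region in an exon of the centrosomal protein gene CEP112, at chr17:63738279-63739566, had 45.1 and 52.8 at WT 1 h, no peak at 0 h in either line, and 38.4 and 41.3 in the RAD21 line at 1 h. At CEP112 the call therefore appeared at 1 h in both lines.

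**Figure D3:**
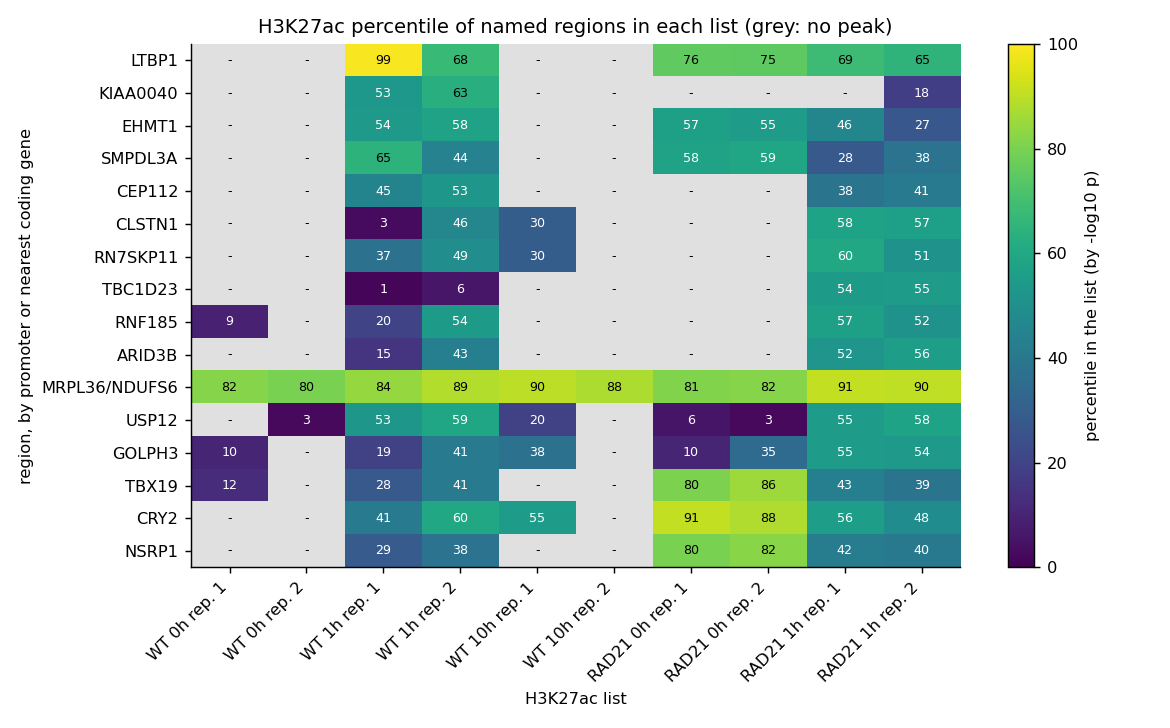
H3K27ac percentile (colour and printed value, by peak −log10 p) in each of the 10 H3K27ac lists (horizontal axis) at 16 named regions (vertical axis), grey where the list has no peak. From the top come 5 fully unmarked enhancers (LTBP1 to CEP112), 5 that gained a call in the RAD21 line (CLSTN1 to ARID3B), and the 3 higher (MRPL36/NDUFS6 to GOLPH3) and 3 lower ranks (TBX19 to NSRP1) with the smallest p in the RAD21 line fit.

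Most of the enhancers active at 1 h only were distal. A promoter, taken as 1000 bp upstream to 200 bp downstream of a transcription start, overlapped 270 (17.2%), and 1304 (82.8%, interval 80.9 to 84.6) lay outside promoters. Of all 1574, 44.3% were intronic, 28.8% intergenic and 9.78% exonic. The promoter share was 57.7% among enhancers active at all 3 times, 12.4% among those active at 0 h only and 9.22% among those active at 10 h only. The median distance to a protein-coding start was 28954 bp, close to the 30026 bp of the 0 h only set and longer than the 11583 bp of the 10 h only set.

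They were also scattered. Another enhancer of the same set lay within 50 kb of 210 of the 1574 (13.3%), compared with 12.8% for 0 h only and 64.5% for 10 h only, a share that grows with the size of a set (5388 at 10 h only). An enhancer active throughout lay within 50 kb of 67.9%, and 161 (10.2%) shared an H3K4me1 region with one, against 5.93% and 54.0% in the other sets. By chromosome, between 3.45 (chromosome 19) and 9.62 (chromosome 18) of every 100 enhancers active at 1 h were active at 1 h only, leaving out Y with its single enhancer.

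The 1574 enhancers had 1388 different nearest protein-coding genes, and 1228 of these genes had a single one. Only 24 genes had 3 or more, of which 4 are named here, after their values were seen. CMIP and SMAD7 had 4 each. Those of SMAD7, an inhibitor of TGF-β signalling, spanned chr18:46468473-46517274, 3 of the 4 were fully unmarked, and 2 were called in both RAD21 line 1 h lists. PIK3CD, a catalytic subunit of PI3-kinase, and the p53 target PMAIP1 had 3 each, and all 3 of either gene were called in both RAD21 line 1 h lists. Of all 1574 enhancers 60.1% were called in both, and another gene with 3 enhancers had 0 such calls.

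Few of these enhancers were counted at genes of the p53 response. Each gene list counted enhancers in a listed gene's promoter, or within 50 kb of its start where no coding start was nearer. Enhancers nearer another gene were left out, and the study linked most p53-bound enhancers by looping to genes that were not the nearest. For 41 p53 target genes the count was 2 of the 1574 enhancers (0.127%), against 0.284% of all enhancers active at 1 h. That share rests on 2 enhancers. Both had PMAIP1, which encodes the pro-apoptotic BH3-only protein NOXA, as nearest gene, and the third PMAIP1 enhancer lay farther away. The first, at chr18:57540677-57542386, 24842 bp from the start, had H3K27ac percentiles of 4.87 in 1 WT list at 0 h, 17.5 and 41.7 at 1 h and 38.1 in 1 list at 10 h. The second, at chr18:57589822-57591202, had no peak at 0 h, 7.38 and 46.1 at 1 h and 32.6 in 1 list at 10 h. H3K4me1 was called in all 6 lists at both, and the call of H3K27ac was partial at 10 h rather than absent.

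The AP-1 and immediate early genes, which answer growth factors and stress within minutes, had 2 of the enhancers near 34 genes (0.127% against 0.388% of all enhancers active at 1 h). One was near TRIB1, a pseudokinase that binds COP1, with H3K27ac percentiles of 16.9 and 38.5 at WT 1 h and none at 0 h or 10 h. The other, in the promoter of the noncoding gene ENSG00000290019, was nearest to DUSP1, the phosphatase that turns off MAP kinases, with 17.0 and 11.7 at WT 1 h and 12.6 in 1 list at 10 h. At the DUSP1 one the RAD21 line had no peak at 0 h and percentiles of 47.8 and 46.1 at 1 h.

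Epithelial adhesion and keratin genes had the most, 8 enhancers at 7 of 28 genes (0.508% against 0.314% of all enhancers active at 1 h). The promoter of KRT7, a simple-epithelium keratin, at chr12:52623589-52626079, had H3K27ac in 1 list at 0 h (13.7), 27.7 and 57.3 at WT 1 h, and 1 list at 10 h (32.6). It had none in the RAD21 line at 0 h and 52.1 and 46.1 there at 1 h. Another KRT7 enhancer and one near KRT8 were called in all 4 RAD21 line lists.

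Among 22 Wnt target genes, 3 enhancers (0.191% against 0.153%) lay near CD44, an adhesion receptor, EPHB2, a receptor tyrosine kinase of the crypt, and SP5, a transcription factor, the last in its promoter. In WT cells none of the 3 had H3K27ac at 10 h, and only SP5 had a peak at 0 h, at percentile 1.32 in a single list. In the RAD21 line at 0 h, EPHB2 had 43.5 and 22.6, and CD44 and SP5 had a peak in 1 list, at 8.17 and 44.2. Single enhancers lay near PPARG, of 26 intestinal transcription factor genes, near EGFR, of 13 EGFR ligand and receptor genes, and near NIPBL, the cohesin loader, of 15 cohesin and CTCF genes, each 0.0635% against 0.19, 0.146 and 0.105%. The PPARG one had no H3K27ac peak at 0 h or 10 h, with H3K4me1 in both lists at each time, and H3K27ac percentiles of 30.6 and 32.2 at WT 1 h. The NIPBL one had H3K27ac percentiles of 49.2 and 52.1 at WT 0 h, 26.0 and 39.1 at 1 h, and 54.2 and 48.4 at 10 h. It was a member through gaps in H3K4me1. With 1 to 8 enhancers per list, no share can be read as particular to a list.

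The windows of 300 bp around the H3K27ac summits were searched on both strands for 11 motifs. These were TGANTCA for AP-1, GGAATG for TEAD, CCGGAA for ETS, CTTTGAT for TCF/LEF, GGGCGG for SP/KLF, CACGTG for an E-box, AGATAA for GATA factors, CAAAGTCCA for HNF4, TGTTTAC for FOX, TTTATNG for CDX and the p53 decamer, with overlaps between motifs allowed. Outside promoters, AP-1 was found in 269 of 1304 windows (20.6%, interval 18.5 to 22.9). The share was 25.4% at 0 h only, 11.3% at 10 h only and 18.2% of all enhancers active at 1 h. The AP-1 share was between those of the 0 h only and 10 h only sets, whose intervals (23.2 to 27.7 and 10.5 to 12.3) do not overlap it.

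The p53 decamer showed another order. It was found in 7.29% of these windows (interval 6.0 to 8.82), in 9.56% at 0 h only, in 17.4% at 10 h only and in 8.19% of all enhancers active at 1 h. A pair of decamers no more than 13 bp apart was in 0 of all 1574 windows, which allows a share of up to 0.191%, while 21 of the 26788 windows of all enhancers active at 1 h (0.0784%), 1 of the 1601 at 0 h only and 45 of the 5388 at 10 h only (0.835%) held one. A count of 0 is therefore near the share of all enhancers active at 1 h. TEAD was in 20.2%, against 16.7% at 0 h only, with overlapping intervals, and 15.5% at 10 h only. Over all enhancers active at 1 h TEAD was in 17.2%. GATA was in 15.0%, against 9.99% at 0 h only, 10.6% at 10 h only and 12.1% of all enhancers active at 1 h. SP/KLF was in 11.3%, against 13.8% at 0 h only, 11.2% at 10 h only and 25.1% at all 3 times. TCF/LEF was in 4.14%, CDX in 13.8%, the E-box in 4.45%, ETS in 3.53%, FOX in 3.14% and HNF4 in 0.230%, against 3.43, 11.5, 4.59, 7.17, 3.71 and 0.418% of all enhancers active at 1 h. A match is a description of letters and not a binding site.

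The GC content of the windows was lower than elsewhere, and repeated sequence was more frequent. Median GC outside promoters was 47.3%, against 50.7% at 0 h only, 51.0% at 10 h only and 52.0% at all 3 times. Windows with no more than 147 of the 295 possible 6-base words, a measure chosen after the sequences were seen, numbered 62 of 1574 (3.94%, interval 3.08 to 5.02). The share was 0.812% at 0 h only, 0.427% at 10 h only and 0.250% at all 3 times. Of these 62 enhancers, 34 (54.8%) missed H3K4me1 at 0 h or 10 h, against 5.40% of all 1574, and they made up 34 of the 85 with that gap. The RAD21 line had a peak at 38 and 42 of the 62 at 0 h and at 35 and 36 at 1 h. The part of repeated sequence in the calls was not tested beyond the values without it, given below.

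**Figure D4:**
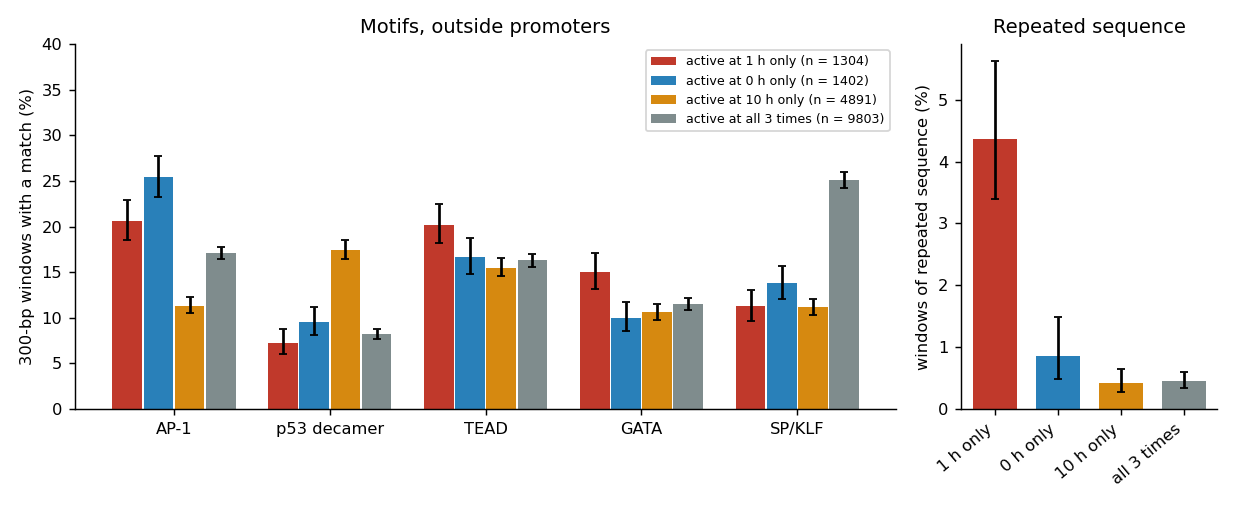
Left, percent of 300-bp windows outside promoters (vertical axis) with a match to each of 5 motifs (horizontal axis), by when the enhancer was active in WT cells. Right, percent of the same windows that are repeated sequence, 4.37% at 1 h only and 0.429 to 0.856% in the other sets, with 95% Wilson intervals (counting error only) as error bars in both.

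The RAD21 line offers H3K27ac lists that played no part in calling these enhancers present or absent, although their peaks were merged into the regions. There, too, the call was more frequent at 1 h. Of the 1574, 34.9% and 35.5% were called in the 0 h lists and 68.8% and 68.4% in the 1 h lists, means of 35.2% ± 0.449 and 68.6% ± 0.270 (SD, n = 2 lists each). The gap of 33.4 points was far wider than the spread between lists, yet 2 lists against 2 cannot give a two-sided exact permutation p below the 0.333 found. Over all enhancers active at 1 h the lists ran from 88.5 and 89.4% at 0 h to 95.3 and 95.4% at 1 h. The 1 h lists of this line also covered more of the genome, 62.6 and 64.1 Mb against 49.1 and 53.2 Mb at 0 h. They did so with 40091 and 39092 peaks against 40683 and 43417. Their median −log10 q was 14.5 and 19.9 against 8.31 and 7.81. The part of these list-wide differences in the calls was not tested.

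Enhancer by enhancer, 946 (60.1%, interval 57.7 to 62.5) were called in both RAD21 line 1 h lists and 414 (26.3%) in both 0 h lists. A gain, meaning a call in both 1 h lists and neither 0 h list, was seen at 426 (27.1%, interval 24.9 to 29.3), beside a background of 4.57% for all enhancers active at 1 h and 4.6% for all H3K27ac regions. The opposite, a loss, was seen at 30 (1.91%), beside 0.37% and 2.87%. In the sets made in the same way, gains and losses were 8.99 and 6.25% at 0 h only, and 9.86 and 3.77% at 10 h only. Gains were thus more frequent in the 1 h only set than in either, and losses less frequent, with no overlap of the counting intervals, which treat enhancers as independent.

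Gains were found across the set. Among the 685 fully unmarked enhancers 25.8% gained a call (interval 22.7 to 29.2), and among the others 28.0%. It was 28.8% outside promoters and 18.5% in promoters. Counting only enhancers in neither RAD21 line 0 h list, 48.4% (426 of 880) were called in both 1 h lists, against 17.7% at 0 h only and 19.9% at 10 h only, but 56.1% of all enhancers active at 1 h and 63.8% at all 3 times. Of the 62 enhancers of repeated sequence 1 was among the 426, and without those 62 the share was 28.1%.

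**Figure D5:**
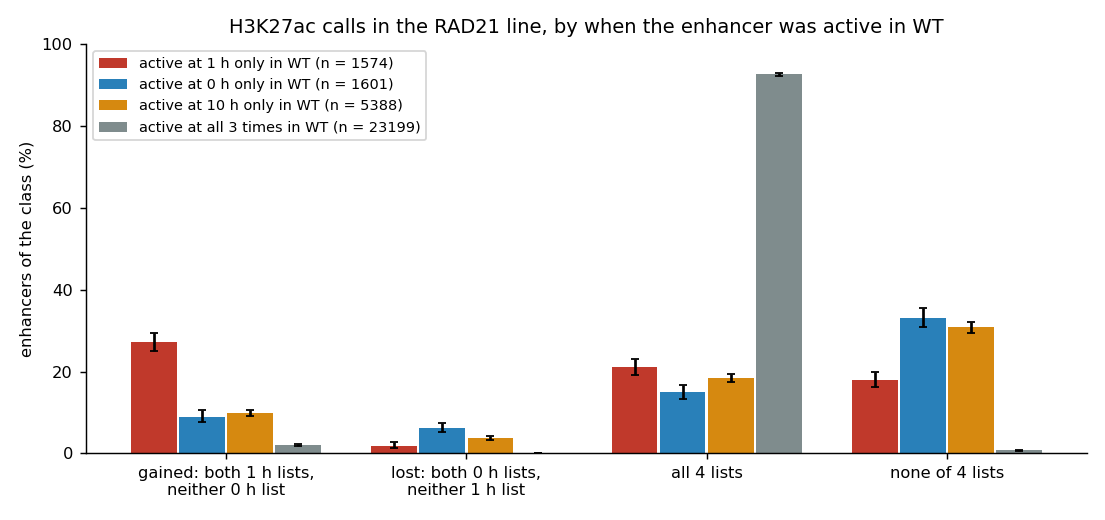
Percent of enhancers (vertical axis) by their H3K27ac calls in the 4 lists of the RAD21 line (horizontal axis), for enhancers active in WT cells at 1 h only, 0 h only, 10 h only and all 3 times, with 95% Wilson intervals that cover counting error only. Gains are 27.1% at 1 h only against 8.99, 9.86 and 2.06% in the other sets, and 18.0% of the 1 h only set had no call in any of the 4 lists.

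The WT lists that decide the set also set the size of this share. Without the first WT 1 h H3K27ac list the rule gave 6657 enhancers, of which 12.9% gained a call and 27.6% were in both RAD21 line 1 h lists. Without the second it gave 3593, with 18.8% and 39.0%. Where a peak in 1 of 2 lists was enough, it gave 6293 enhancers, with 9.42% and 18.1%. In all 17 alternatives compared for all 3 sets, the share that gained a call stayed above the 0 h only and 10 h only shares. The narrowest gap to 0 h only, 4.94 points, was without the first WT 1 h H3K27ac list. The share that lost a call was not the lowest throughout. Where 1 list was enough it was 2.45%, against 2.21% at 10 h only and 3.04% at 0 h only. Where peaks had to cover a minimum part of a region it was 1.06%, against 0.843% and 3.76%. In the remaining alternatives it stayed below both other sets.

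The 5 enhancers with the strongest gain had no H3K27ac peak in the RAD21 line at 0 h and percentiles of 50.8 to 59.6 there at 1 h. In an intron of CLSTN1, a calsyntenin, the RAD21 line 1 h lists gave 58.1 and 56.6, and the WT 1 h lists 2.89 and 46.1. At the region in the promoter of the noncoding gene RN7SKP11, 26196 bp from the start of the kinase gene CDK17, they gave 59.6 and 50.8, against 37.3 and 49.0 in WT. In an intron of TBC1D23, a Golgi trafficking protein, at chr3:99988019-99989559, they gave 54.3 and 55.3, against 1.48 and 6.11 in WT. The 5 were therefore weak to middling in WT cells and in the middle of the list in the RAD21 line, and the other two, in an intron of RNF185, a ubiquitin ligase, and near ARID3B, a DNA-binding protein, lay in the same range.

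The ranks of enhancers already called at 0 h ran the other way. Normal scores of the within-list rank were fitted with limma over the 22451 H3K27ac regions called in all 4 RAD21 line lists, which hold 331 of the 1574 enhancers. Of the 331, 16 (4.83%) ranked higher at 1 h than at 0 h and 100 (30.2%) lower at a Benjamini-Hochberg adjusted p under 0.05, beside 18.9% higher and 16.7% lower over all regions. Their median change was −0.21 normal-score units, against 0.03 over all regions. The other 215 did not pass the test. A lower rank is a place within its list and need not be a lower fold enrichment. At the LRIF1 promoter, ranked lower, fold was 38.7 and 38.6 at 0 h and 39.0 and 41.7 at 1 h. At the TBX19 region below it was 26.2 and 28.0, then 6.89 and 5.73. Fold at enhancers active at all 3 times had medians of 20.1 and 17.2 at 0 h and 31.3 and 39.5 at 1 h. The 331 are the enhancers with the most RAD21 line calls and leave out every gain and loss described above.

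Among enhancers active at 0 h only, 5 of 240 ranked higher and 44 lower, and among those active at 10 h only 63 of 983 and 88. Lower ranks outnumbered higher ones at enhancers active at 1 h only in all 8 alternatives of this fit, by differing margins. Higher and lower calls numbered 51 and 115 over the 617 enhancers called in at least 1 list of each group, with a median change of 0.0. They were 63 and 113 without the first RAD21 line 0 h list, 48 and 112 without the second, and 4 and 83 and 4 and 75 without either 1 h list.

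The 3 lower ranks with the smallest p began from high values in the RAD21 line. A region 117421 bp from the start of TBX19, a T-box factor, at chr1:168367536-168369330, had percentiles of 80.4 and 85.5 at 0 h and 43.2 and 38.6 at 1 h. Its change was −1.69 ± 0.123 (SE, adjusted p = 2.02e-06 by limma). In WT cells it had 12.5 in 1 list at 0 h and 27.8 and 40.9 at 1 h. A region 2971 bp from the start of CRY2, a repressor of the circadian clock, at chr11:45864358-45865698, went from 90.8 and 88.2 to 55.8 and 48.5 (−1.60 ± 0.117), and one in an intron of NSRP1, a splicing regulator, at chr17:28431533-28432553, from 79.7 and 82.1 to 42.0 and 40.3 (−1.58 ± 0.117). At all 3 the RAD21 line at 1 h was closer to the WT 1 h level than to its own 0 h level.

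Of the 3 higher ranks, 2 rose from low values. A region 134354 bp from the start of USP12, a deubiquitinase, at chr13:27609464-27611484, had percentiles of 5.72 and 2.69 at 0 h and 55.3 and 58.0 at 1 h, a change of 2.11 ± 0.347 (SE, adjusted p = 0.000583 by limma), and 52.8 and 59.3 at WT 1 h. One 48908 bp from the start of GOLPH3, a Golgi protein, at chr5:32223333-32225149, went from 10.4 and 34.8 to 55.3 and 54.2 (1.30 ± 0.280). Both lost the call in 1 alternative, USP12 without the second and GOLPH3 without the first RAD21 line 1 h list. The third, the MRPL36 and NDUFS6 promoter, went from 80.9 and 81.7 to 91.0 and 90.4 (0.53 ± 0.083).

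At the edge of the rule, the enhancers just inside had a −log10 q of 1.32 in their weaker WT 1 h H3K27ac list. They lay in an exon of ATPAF2, an assembly factor of ATP synthase, with 1.32 and 10.1, and in an intron of METTL6, a tRNA methyltransferase, with 3.71 and 1.32. Just outside, 7102 intersections met all other conditions with H3K27ac in a single WT 1 h list. The strongest of these were near ALDH1B1, with a −log10 q of 55.3 in the first list and no peak in the second, and in an intron of CYP4F11, with 24.6 in the second and no peak in the first.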

How the data were processed

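The authors trimmed reads with Trim Galore 0.6.6, aligned them to GRCh37 with Bowtie2 2.3.2, removed low-quality, duplicate and blacklisted reads, and called peaks with MACS2 2.2.7.1 (narrow for H3K27ac, broad for H3K4me1) against input, versions per the submitters' processing notes. The deposited lists give each peak a fold enrichment (ratio) and −log10 p and q values, and no read counts, so depth is unknown. Input libraries were not analysed here.

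Peaks of all lists of a mark that overlapped or touched were merged into regions. Overlap with 1 bp of a list's peaks counted as a call. Strength is the percentile of the region's highest −log10 p. Shares have 95% Wilson intervals, which cover counting error only, and 3 counts set the limit of a share of 0. RAD21 line ranks were tested with limma 3.58.1 (R 4.3.3, eBayes with trend). Gene starts, exons and introns are from GENCODE v44lift37. The rule and the rank fit were tested on simulated data. Members, gene lists and motifs were chosen with earlier results of these data known.

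Named enhancers are the 10 highest WT 1 h H3K27ac means, the 5 highest with no H3K27ac at 0 h and 10 h, the 5 highest RAD21 line gains, the 3 smallest p in each direction of the rank fit, up to 4 per gene list, and 2 on each side of the threshold. Printed sequences are from both groups of 5. Some items these rules name are not reported here. Alternatives were another q threshold, another overlap, intersection by bases, other merging, other rules of presence and absence, another promoter window and each list left out. Without repeated sequence, and with lists merged per group, were added after the data were seen.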

Additional observations from a re-analysis of the deposited data

How the results depend on the processing

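The number of enhancers active at 1 h only depended on the rule. It was 524 with a −log10 q of at least 5 for presence, 1422 with that value for all calls, 2539 where peaks had to cover at least 50% of a region, 2668 by bases, 701 where a mark had to be absent from both its lists, 6293 where 1 list was enough, and 1175 to 6657 with each WT list left out, both extremes coming from H3K27ac lists. Of the 1574, 33.3%, 33.1%, 45.1%, 94.5%, 44.5% and 44.5% were overlapped under the first 6 of these. Merging lists per group gave 1702, overlapping 96.1% of the 1574. In the same order of 6, the percent lacking H3K27ac alone at 0 h moved from 95.9 to 99.4, 73.8, 71.4, 71.4, 93.7 and 91.4, the percent outside promoters from 82.8 to 79.8, 68.6, 61.4, 69.4, 84.6 and 90.9, the percent in both RAD21 line 1 h lists from 60.1 to 75.0, 73.6, 70.5, 71.5, 50.1 and 18.1, and the percent gained there from 27.1 to 29.8, 25.9, 20.6, 19.0, 25.2 and 9.42. Merged per group, these 4 were 93.2, 80.0, 63.0 and 25.3, and without repeated sequence 97.6, 82.5, 60.6 and 28.1. With WT lists left out they ran from 90.8 to 97.1, 82.2 to 90.1, 27.6 to 60.1 and 12.9 to 27.6, and with RAD21 line lists left out the last 2 ran from 60.1 to 68.8 and 32.2 to 33.3. Regions merged from WT lists alone gave 1576, and none of the 4 percentages then moved beyond its interval. Causes were not tested.

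In the rank fit, 116 enhancers were called, 80 when ranked by fold (8 higher, 72 lower), 89 with a −log10 q of at least 5 (8 and 81) and 79 to 176 with each list left out, where a single list stands for its group and is assumed to vary like the other. With the replicate number as a block 124 were called (22 and 102). The numbers do not pair the lists, since the replicate differences at 0 h and 1 h correlated at r = −0.0343 over 22451 regions, so the block says nothing of a shared batch. Of 46 alternative values for the 6 named ranks, 44 kept their call and direction and 2 kept the direction alone. Peak lists without read counts limit every call to the authors' threshold: an absent peak may be a weak one.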
